A study of Mus musculus with 12 samples.

Results

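Dancr, Snhg1, Rny1 and Rny3 are noncoding RNAs. They are 4 of the 12145 rows of a deposited count table and lie at 3 places in the mouse genome. Dancr and Snhg1 are long noncoding transcripts that carry small nucleolar RNAs (snoRNAs) in their introns, and Rny1 and Rny3 are the mouse Y RNAs Y1 and Y3. They were chosen because their values were low in the 3 libraries labelled OGD-empty, so every comparison with that group is given for them as a description, without a test.

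All libraries came from cortical cultures of C57BL6 mouse embryos (E16.5-E17.5), infected on day 6 in vitro with lentivirus (summed multiplicity of infection, 2). On day 14 in vitro the cultures were either deprived of oxygen and glucose (OGD, a cell culture model of ischemia) for 3 h and left to recover for 4 h, or rinsed and kept in normal oxygen (sham). The 4 groups were sham-empty (empty virus, no OGD), sham-miR-29 (virus expressing miR-29c, no OGD), OGD-empty (empty virus with OGD) and OGD-miR-29 (virus expressing miR-29c, with OGD), so the controls were also infected. They held 2, 3, 3 and 3 usable libraries of total RNA depleted of ribosomal RNA, since the column labelled sham-empty replicate 3 did not hold read counts. The design text gives replicates as cultures dissected on different days, so libraries with the same number share a day.

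As background, most mammalian snoRNAs are cut out of the introns of a host transcript after splicing. Box C/D snoRNAs guide the methylation of ribosomal RNA, and box H/ACA snoRNAs guide the conversion of uridine to pseudouridine. Some host transcripts, Snhg1 and Gas5 among them, code for no known protein, and their spliced RNA is short-lived because translation over short reading frames exposes it to nonsense-mediated decay. Y RNAs are short RNAs made by RNA polymerase III from their own genes. They fold into a stem and loop, bind the Ro60 and La proteins, and are known for roles in RNA quality control and, in vertebrate cells, in the start of DNA replication. Dancr is best known from human epidermis, where it holds back differentiation.

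The sequences of 4 short RNAs are shown because they lie in the stretches to which most reads of these rows could be narrowed down. They are printed 5′ to 3′ from the GENCODE M21 transcripts of build GRCm38, as DNA letters. Rny1 lies on chromosome 6, minus strand, at chr6:47788069-47788180. Rny3 lies on the plus strand at chr6:47781624-47781725, 6344 bp away. Capitals in both mark the runs of at least 8 bases that occur in both Y RNAs in the same order.
Rny1: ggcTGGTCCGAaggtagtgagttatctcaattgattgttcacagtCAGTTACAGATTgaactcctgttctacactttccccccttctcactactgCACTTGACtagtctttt
Rny3: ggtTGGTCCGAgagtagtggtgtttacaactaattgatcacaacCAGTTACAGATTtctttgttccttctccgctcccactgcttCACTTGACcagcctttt
Snord22 is the last snoRNA inside Snhg1, at chr19:8725866-8725991 on the plus strand, and capitals mark its last CTGA, the letters of a box D.
Snord22: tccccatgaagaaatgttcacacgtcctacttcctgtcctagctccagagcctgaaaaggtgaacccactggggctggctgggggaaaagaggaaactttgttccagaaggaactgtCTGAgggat
Snora26 is the snoRNA inside Dancr, at chr5:74093530-74093650 on the plus strand, and capitals mark the ACA before its last 3 bases, the letters of an ACA box.
Snora26: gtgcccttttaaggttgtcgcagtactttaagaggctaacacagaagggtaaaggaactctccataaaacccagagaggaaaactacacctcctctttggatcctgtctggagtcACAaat

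The Y RNAs were 112 nt (Rny1) and 102 nt (Rny3) long. Of 112 columns of a global alignment 81 were identical (72.3%), and the 3 shared runs held 28 bases, the longest 12. These runs lie at both ends and in the middle of the molecules, and both RNAs end in a run of T. In Snord22 the CTGA ended 5 bases before the 3′ end. Of 1483 annotated snoRNA transcripts, 35.2% held CTGA in their last 20 bases and 17.8% held ACA before the last 3 bases. A match of these letters is a description of the sequence only.

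The read totals of the 11 libraries ran from 1337564 to 6616920, but rows of the mitochondrial genome took 57.6% to 84.1% of them, which left 231500 to 1362484 reads on all other rows. Levels are counts per 1000000 (CPM) on library sizes, taken from such sums and scaled by the trimmed mean of M-values. The mitochondrial share was 76.4%, 57.6% and 73.1% in the 3 OGD-empty libraries and 74.1% to 84.1% in the other 8. Of the marker genes listed for neurons, 9 of 9 were in the table, with a summed level of 1160 to 1400 CPM in OGD-empty and 736 to 1100 CPM elsewhere. For astrocytes it was 5 of 6, with 37.9 to 52.7 CPM in OGD-empty and 38.8 to 51.6 CPM elsewhere. The count table had no row named Gfap. The microglial rows, 3 of 7, summed to 18.8 to 28.0 CPM in OGD-empty and 28.1 to 40.8 CPM elsewhere. The oligodendrocyte rows were 2 of 6 at 4.63 to 8.46 CPM over all libraries, and none of 5 vascular markers had a row. The part of these shifts in the values below was not tested. In bulk cultures, fewer cells of a type and less RNA per cell cannot be told apart.

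Snhg1 (chr19:8723475-8726443, plus strand, a processed transcript) had 206 and 153 CPM in the sham-empty libraries. Its level was 162, 96.1 and 92.3 CPM in sham-miR-29, 43.1, 60.1 and 32.7 CPM in OGD-empty. The OGD-miR-29 libraries had 160, 105 and 209 CPM. The OGD-empty libraries were the 3 lowest, and the other 3 groups overlapped one another. These levels stood on 61 to 872 reads a library. The group means were 179.7 ± 37.1 CPM (SD, n = 2), 117 ± 39.1 CPM (n = 3), 45.3 ± 13.8 CPM (n = 3) and 158 ± 52.0 CPM (n = 3) in the same order. The log2 fold change was -1.98 ± 0.32 (SE) in OGD-empty against sham-empty, a 3.95-fold lower level, and 1.80 ± 0.29 in OGD-miR-29 against OGD-empty, a 3.48-fold higher level.

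Dancr (chr5:74093060-74095406, plus strand) was a shallow row. It held 6 and 22 reads in sham-empty, 25, 15 and 26 in sham-miR-29, 20, 5 and 3 in OGD-empty, while OGD-miR-29 held 58, 19 and 32. As CPM this came to 5.97 and 12.7 CPM in sham-empty and to 9.48, 5.76 and 6.68 CPM in sham-miR-29. For OGD-empty it was 3.09, 2.26 and 1.61 CPM, and for OGD-miR-29 10.7, 7.48 and 15.4 CPM. The OGD-empty libraries were again the lowest in CPM. In raw reads they were not, since OGD-empty replicate 1 held 20 reads and sham-empty replicate 1 held 6. The log2 fold change was -1.94 ± 0.46 (SE) in OGD-empty against sham-empty, 3.83-fold lower, and 2.08 ± 0.36 in OGD-miR-29 against OGD-empty, 4.22-fold higher. Without sham-empty replicate 2 the first value was -1.19.

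The Y RNA rows moved almost as one. Rny1 had 244 and 142 CPM in sham-empty, 204, 96.8 and 99.8 CPM in sham-miR-29, 42.3, 57.8 and 27.9 CPM in OGD-empty, while OGD-miR-29 had 174, 101 and 178 CPM. Rny3 had 253 and 131 CPM, then 193, 89.5 and 102 CPM, then 37.7, 48.8 and 30.0 CPM, and last 154, 91.4 and 199 CPM in the same groups. In both, the 3 OGD-empty libraries were the lowest and the other groups overlapped. The log2 fold change in OGD-empty against sham-empty was -2.16 ± 0.41 (SE) for Rny1, 4.48-fold lower, and -2.30 ± 0.42 for Rny3, 4.91-fold lower. In OGD-miR-29 against OGD-empty it was 1.82 ± 0.37 for Rny1 and 1.93 ± 0.38 for Rny3.

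**Figure D1:**
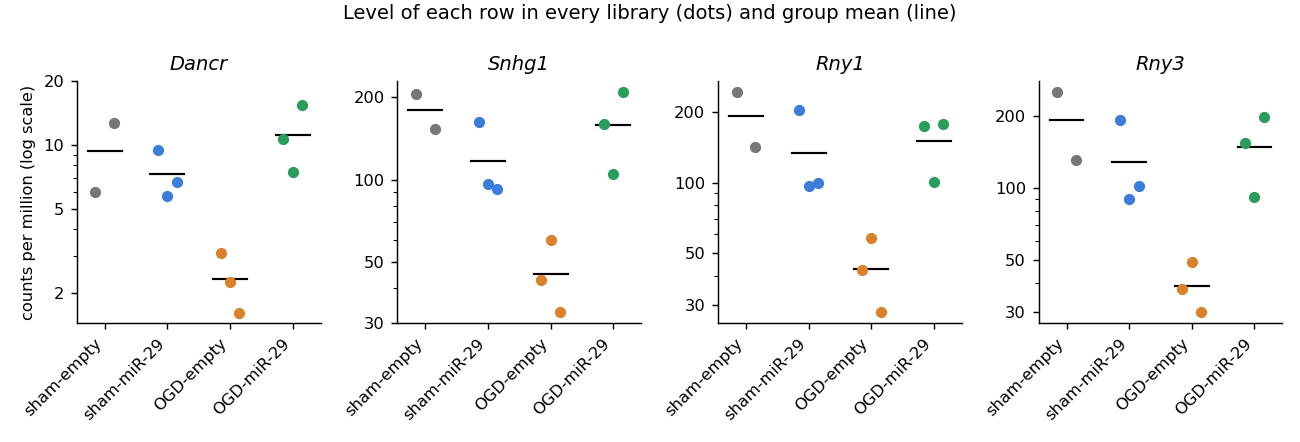
Level in CPM (log scale) of Dancr, Snhg1, Rny1 and Rny3 in each of the 11 libraries, with dots for libraries and lines for group means. In each panel the 3 OGD-empty libraries lie below all the others, from 1.61 to 3.09 CPM for Dancr and from 32.7 to 60.1 CPM for Snhg1.

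The distance to the nearest other library was similar for the 4 rows. The highest OGD-empty level was 3.1 CPM for Dancr, against 5.8 CPM in the lowest other library. It was 60.1 against 92.3 CPM for Snhg1, 57.8 against 96.9 CPM for Rny1, and 48.8 against 89.6 CPM for Rny3. The lowest other library was always a sham-miR-29 one. Every OGD-empty library lay below every other library in 1207 of the 12119 genes tested (9.96%), and since the rows were chosen for this, nothing is read from their place in that share. By group mean, Snhg1, Rny1 and Rny3 were ordered sham-empty, OGD-miR-29, sham-miR-29 and OGD-empty from high to low, and Dancr had OGD-miR-29 before sham-empty. The first 3 groups in each order overlapped with their neighbours, and only OGD-empty stood apart.

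Comparisons free of the OGD-empty group could be tested. All were made in 1 fit across 12119 genes with edgeR's quasi-likelihood test and Benjamini-Hochberg adjustment, with a call at an adjusted p under 0.05. In OGD-miR-29 against sham-miR-29, where 0.0165% of all genes were called, 0 of the 4 rows were called, 0 had an unadjusted p under 0.05 (9.17% of all genes did), and DESeq2's Wald test and limma-voom also called 0. The log2 fold changes were 0.59 ± 0.31 (SE) for Dancr, 0.44 ± 0.28 for Snhg1, 0.18 ± 0.36 for Rny1 and 0.20 ± 0.36 for Rny3, with adjusted p = 0.566, 0.637, 0.899 and 0.884 by edgeR. Dancr was higher in 3 of 3 same-day pairs and the other rows in 2 of 3. The 95% intervals reached from -0.05 to 1.23 for Dancr, -0.16 to 1.03 for Snhg1, -0.60 to 0.96 for Rny1 and -0.59 to 1.004 for Rny3. The difference of the OGD effect between viruses was not tested for these rows, because the rule used it.

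In sham-miR-29 against sham-empty, 0 of the 4 rows were called and 0.0% of all genes were called by edgeR. The log2 fold changes were -0.45 ± 0.40 (SE) for Dancr, -0.62 ± 0.31 for Snhg1, -0.53 ± 0.40 for Rny1 and -0.57 ± 0.41 for Rny3, with an adjusted p of 0.9995 for each. The 4 values shared a sign, but the rows share libraries and Rny1 and Rny3 share reads. The 95% intervals, not adjusted for the number of genes, were -1.29 to 0.38 for Dancr, -1.28 to 0.05 for Snhg1, -1.40 to 0.35 for Rny1 and -1.47 to 0.32 for Rny3. An unadjusted p under 0.05 was reached by 405 genes (3.34%). None of the 4 rows was among them, and DESeq2 and limma-voom called 0 genes.

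OGD-miR-29 stood near sham-empty. The log2 fold change was 0.14 ± 0.39 (SE) for Dancr, -0.18 ± 0.32 for Snhg1, -0.35 ± 0.40 for Rny1 and -0.37 ± 0.41 for Rny3. By edgeR 0 of the 4 rows and 0.0% of all genes were called, with adjusted p from 0.864 to 0.96 for the rows; 841 genes (6.94%) had an unadjusted p under 0.05, none of them 1 of the 4 rows, and DESeq2 and limma-voom called 0. The 95% intervals were -0.66 to 0.94, -0.85 to 0.49, -1.22 to 0.53 and -1.26 to 0.53 in the same order. Leaving out sham-empty replicate 1 turned the sign of all 4 values, to -0.18, 0.07, 0.12 and 0.19. The comparisons share groups with one another, so their values are not independent.

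**Figure D2:**
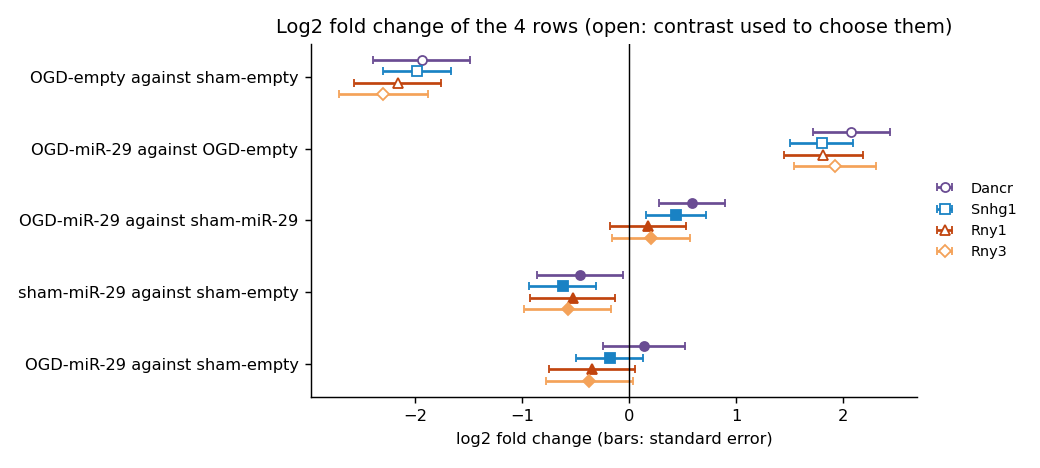
Log2 fold change of Dancr, Snhg1, Rny1 and Rny3 in 5 comparisons, with standard errors as bars; open symbols mark the comparisons that were used to choose the rows. Values with OGD-empty lie near -2 and 2, from -2.30 to -1.94 and from 1.80 to 2.08, and the tested ones lie between -0.62 and 0.59.

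In the authors' deposited table of OGD-empty against sham-empty, the log2 fold changes were -2.02 for Dancr, -1.59 for Snhg1, -1.23 for Rny1 and -1.20 for Rny3. False discovery rates in the authors' deposited table were 0.121, 0.0855, 0.364 and 0.484 in that order. For OGD-miR-29 against sham-empty, the authors' deposited table gave -0.05, 0.16, 0.52 and 0.56. The deposited values for Snhg1 and the Y RNAs were thus closer to 0, or higher, than those computed here from 2 sham-empty libraries, while Dancr had nearly the same value in OGD-empty. Which columns entered the deposited comparison is not given in the sources used here.

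A row of this table is not the same as a gene. Counts fitted a counting window that ran from the start of each gene to 10 kb past its end, without regard to strand. In sham-empty replicate 1, mt-Tq, a mitochondrial gene on the minus strand, held 110106 reads, against 110849 for mt-Rnr1 and 110844 for mt-Tf on the other strand. Among 706 pairs of same-strand genes with one window inside the other, the inner row did not exceed the outer one in 98.7%, by counts summed over libraries. For 1423 pairs on opposite strands the share was 91.8%. The window is thus an inference, and in some opposite-strand pairs the inner row was the larger. The rows of Dancr, Snhg1, Rny1 and Rny3 were taken to hold all reads of their windows, and overlapping rows were used to place them on that basis.

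In Snhg1 the rows of 8 snoRNAs lie inside the host, in the order Gm25855, Gm25894, Gm24452, Gm24453, Gm22744, Gm22680, Gm23246 and Snord22. Each of these windows starts further to the 3′ side, and each ends before the window of Snhg1 does. The count that the Snhg1 row holds beyond the Snord22 row is therefore an upper limit for reads before Snord22, since it also takes in the last part of the Snhg1 window, which reaches into Wdr74. In sham-empty replicate 1 the host held 207 reads and the Snord22 row 202, and in OGD-miR-29 replicate 1 the values were 872 and 842. Between neighbouring rows the count stepped down or stayed in 87 of 88 comparisons over 11 libraries. The Snord22 row held 85.2% to 97.6% of the host row, although 8 of 10 exons and 364 of 605 nt (60.2%) of the spliced transcript Snhg1-211 lie before Snord22. Most reads of the Snhg1 row thus began at or after Snord22, and reads of Snord22, of the last exons of Snhg1 and of the sequence downstream cannot be told apart.

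**Figure D3:**
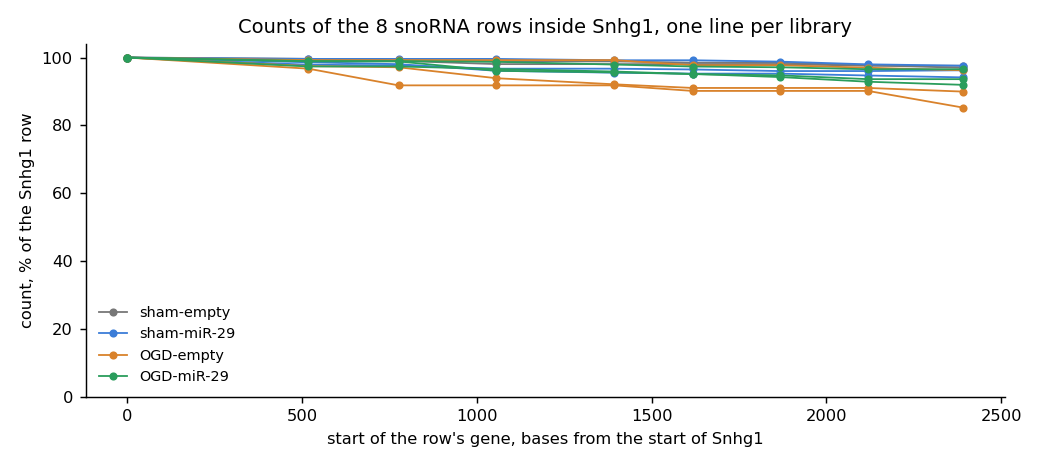
Counts of the 8 snoRNA rows inside Snhg1 as a percentage of the Snhg1 row, against the start of each gene in bases from the start of Snhg1, with 1 line per library coloured by group. All lines stay between 85.2% and 100%, so at most a small part of the reads lay before the last snoRNA, Snord22.

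The Snord22 row, which holds most of the reads by which Snhg1 was chosen, stood at 38.8, 57.8 and 27.9 CPM in OGD-empty and at 86.9 to 200.9 CPM in the other 8 libraries, without overlap. Reads before Snord22 came to at most 4.32, 2.26 and 4.82 CPM in OGD-empty. The limit came to 4.97 and 4.63 CPM in sham-empty, 6.07, 2.31 and 5.40 CPM in sham-miR-29, and 5.51, 6.70 and 16.8 CPM in OGD-miR-29, so that the groups overlapped. These are 5 to 35 reads a library, too few to say whether the part before Snord22 differed between groups. As a share of the Snhg1 row the limit was 10.0%, 3.76% and 14.8% in OGD-empty and 2.40% to 8.05% in the others. The protein-coding neighbour Wdr74 starts 9384 bp past Snhg1, and its row held 3.86% to 21.9% of the Snhg1 count, the most that it could share. Slc3a2 ends 106 bp before Snhg1 and is transcribed away from it; its row held 10.1% to 75.4% of the Snhg1 count, and its window does not reach Snhg1.

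For Dancr the rows could not separate host and snoRNA. The Snora26 row held 90.9% to 100% of the Dancr count, and the Dancr row held 0 to 2 reads a library beyond it. Of the spliced transcript Dancr-203, 2 of 3 exons and 125 of 575 nt (21.7%) lie before Snora26, so a low share of reads there has little room to show. What is given for Dancr may therefore be Snora26, the last exon or both.

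For the Y RNAs the windows face each other and each covers both genes. The limits below hold only if counting ignored strand, since they compare rows of genes on opposite strands. The Rny3 row held 84.4% to 112% of the Rny1 row in the 11 libraries, so the rows are largely the same reads. The pseudogene Rpl31-ps7 (chr6:47785996-47786374, minus strand) lies between them, and its window covers Rny3 but not Rny1. Its row is thus an upper limit for reads of the Rny3 gene itself, and it held 34.6% to 51.9% of the Rny3 row. The count of the Rny3 row beyond the Rpl31-ps7 row is a lower limit for reads in the stretch that holds Rny1. This limit was 22.1, 23.5 and 18.2 CPM in OGD-empty and 54.35 to 165 CPM in the other 8 libraries. The Rpl31-ps7 row was 15.6, 25.3 and 11.8 CPM in OGD-empty and 33.4 to 87.5 CPM in the others. Both values were lowest in OGD-empty, without overlap, and both come from reads of the rows that were chosen for this. Pdia4, a protein disulfide isomerase gene 7961 bp from Rny1, has a window that also covers Rny1, and at least 53.6% to 98.9% of its row lay in that shared stretch.

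**Figure D4:**
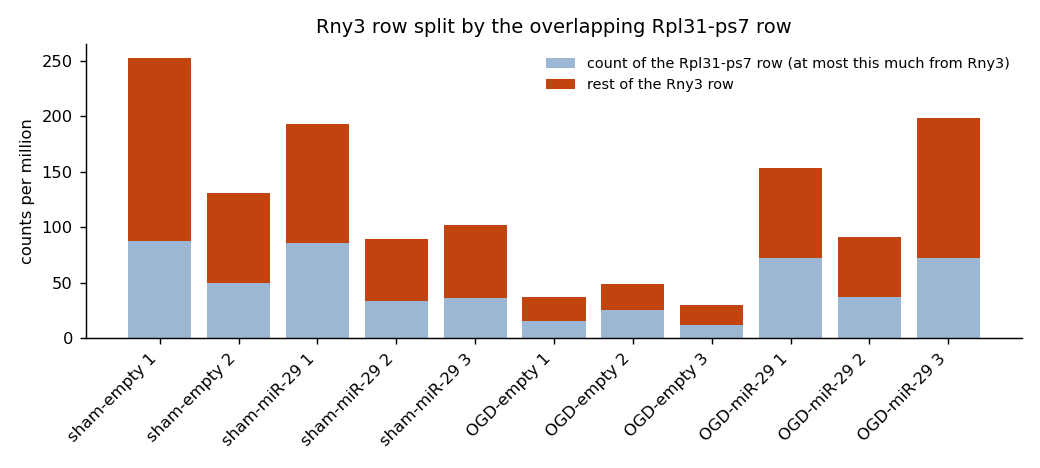
Level in CPM of the Rny3 row in each library, split into the count of the overlapping Rpl31-ps7 row, which is the most that the Rny3 gene itself can hold, and the rest, which is the least that the stretch holding Rny1 can hold. These limits assume that counting ignored strand. Both parts are smallest in the 3 OGD-empty libraries, at most 25.3 and 23.5 CPM.

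Correlations among the rows differed with the libraries used. Over 11 libraries Pearson's r of log2 CPM was 0.992 between Rny1 and Rny3, which share reads, and 0.986 between Snhg1 and Rny1, which do not. Among the 8 libraries outside OGD-empty these were 0.981 and 0.932. Dancr correlated with Snhg1, Rny1 and Rny3 at 0.891, 0.847 and 0.845 over 11 libraries, and at 0.56, 0.327 and 0.334 over the 8. The values over 11 libraries rest in part on the low OGD-empty levels by which the rows were chosen, and all are descriptions over libraries that share days and differ in depth. The genes beyond 100 kb with the most similar pattern were Senp3 (r = 0.994), the snoRNA Gm22988 (0.993) and Mir1934 (0.991) for Snhg1, all on chromosome 11. Gm22988 and Mir1934 have overlapping counts with Eif4a1, itself a snoRNA host. Senp3 had group means of 187, 121, 53.5 and 161 CPM (sham-empty, sham-miR-29, OGD-empty, OGD-miR-29), near the 177, 113, 48.6 and 151 CPM of Gm22988. Whether Senp3 shares these reads was not checked, so the 3 genes may not be separate matches. For the Y RNAs they were 3 small nuclear RNA genes, Gm24265 (0.991) and Gm24407 (0.991) on chromosome 5 and Gm24305 (0.99) on chromosome 12. Gm24265 had a mean level of 582 CPM in sham-empty and 451 CPM in sham-miR-29, with 126 CPM under OGD-empty and 513 CPM under OGD-miR-29. For Dancr they were Eif1b (0.979), a translation initiation factor, Rdm1 (0.97) and Slc36a3 (0.969).

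Other noncoding snoRNA hosts are not among the 4 rows chosen on OGD-empty and were tested with it, although their list too was drawn up with earlier results of these data known. Of 10 such genes tested, 2 fell and 0 rose in OGD-empty against sham-empty (median log2 fold change -0.63, against 0.02 over all genes); edgeR called 5.09% of all genes, 1.48% higher and 3.61% lower. Snhg3, host of the Snora73 RNAs, had 220 and 160 CPM in sham-empty and 44.6, 82.7 and 58.4 CPM in OGD-empty. It fell by 1.62 ± 0.30 on the log2 scale (adjusted p = 0.00707, edgeR), and Snhg4 fell by 1.47 ± 0.32 (adjusted p = 0.0165, edgeR). The overlapping rows Rcc1, Snora73a and Snora73b each had a count over 50% of that of Snhg3, and shared reads were not measured. Without sham-empty replicate 1 neither was called (adjusted p = 0.118 and 0.169, edgeR), and with the day as a block 5 genes were called, 4 lower (Snhg3, Snhg4, Snhg6 and Snhg7) and 1 higher (Meg3). Without OGD-empty replicate 1 it was 4 genes. Snhg4 was not matched to the annotation, so its neighbours were not checked. Gas5, host of many box C/D snoRNAs and named after its value was seen, was at -0.23 ± 0.31 and was not called.

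In OGD-miR-29 against OGD-empty, where 37.1% of all genes were called, 17.2% higher and 19.9% lower, the same 10 hosts split. Snhg3 (1.88 ± 0.28 SE), Snhg4 (1.13 ± 0.28), Snhg6 (1.09 ± 0.34), Snhg7 (1.03 ± 0.28) and Snhg12 (0.95 ± 0.36) rose, with adjusted p from 0.000542 to 0.043 by edgeR. Meg3 (-1.58 ± 0.29), a long imprinted RNA of the Dlk1 region, and Snhg11 (-1.14 ± 0.26), a brain transcript, fell (adjusted p = 0.00118 and 0.00277, edgeR). Meg3 is counted as a host by its place on the list only, and whether it holds a snoRNA was not checked here. Gas5, Snhg5 and Rian were not called. Overlapping rows had counts over 50% of those of Snhg6 (Mcmdc2), Snhg12 (Trnau1ap, Snora16a and Snora44), Snhg11 (Gm25187 and Gm25129) and Meg3 (Gm26906). How many reads they share was not measured. Snhg5, Snhg6, Snhg7, Snhg12, Gas5 and Rian are named to complete the list, after their values were seen. Meg3, Snhg11, Snhg3 and Snhg4 were called with each library left out in turn. Snhg7 and Snhg12 were not called without OGD-empty replicate 1, and Snhg6 and Snhg12 were not called without OGD-empty replicate 3 or without replicate 1 or 3 of OGD-miR-29. With the day as a block and the trend with gene length removed, 3 of 8 tested were called, Snhg3, Meg3 and Snhg11. Snhg4 and Snhg7 had no annotated length and did not enter that fit, while Snhg6 and Snhg12 did and were not called. The OGD effect itself differed between the virus backgrounds in 4 of the 10 hosts by edgeR's interaction term, against 8.38% of all genes. This term was run in the main fit only.

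**Figure D5:**
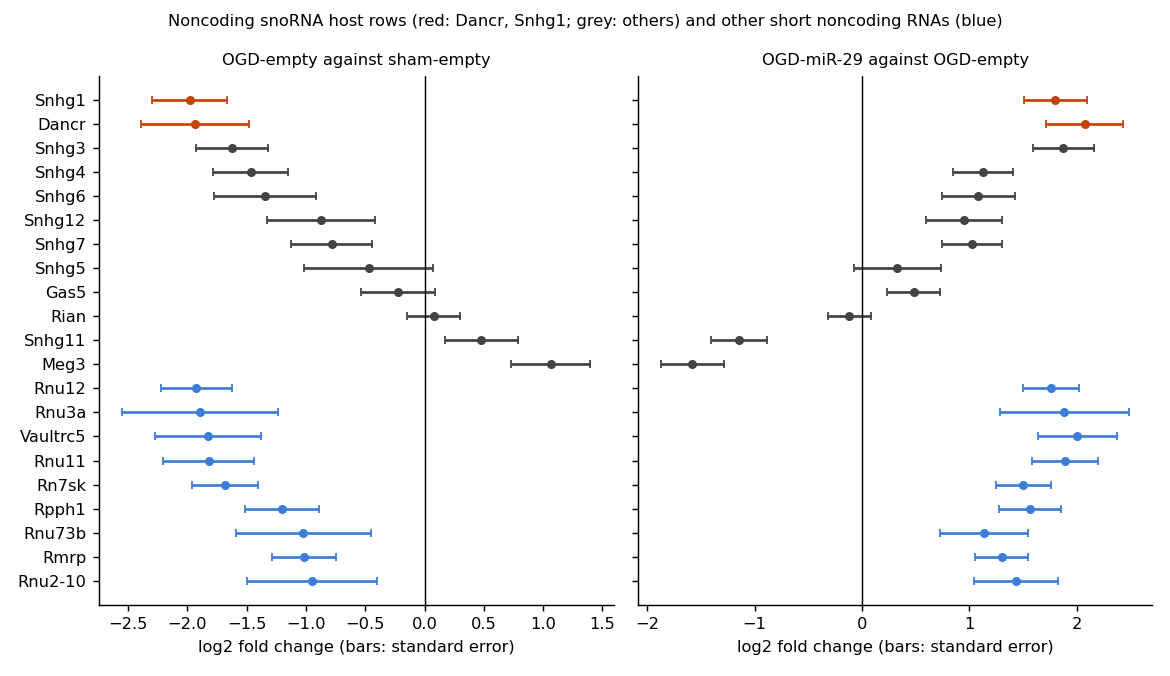
Log2 fold change with standard error of 12 noncoding snoRNA hosts (Dancr and Snhg1 in red, which were chosen on these comparisons, and 10 others in grey) and 9 other short noncoding RNAs (blue). In OGD-empty against sham-empty all 9 blue points are below 0 with a median of -1.68, and in OGD-miR-29 against OGD-empty all 9 are above 0.

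Among protein-coding snoRNA hosts, mostly genes of ribosomal proteins and translation factors, 13 of 31 fell and 0 rose in OGD-empty against sham-empty (median log2 fold change -1.003). Over all genes, edgeR called 3.61% lower and 1.48% higher. Eif4a1, an RNA helicase of translation initiation, fell by 1.80 ± 0.27 on the log2 scale. The ribosomal protein genes Rps3 (-1.73 ± 0.28), Rpl23 (-1.89 ± 0.33) and Rps2 (-1.34 ± 0.25) fell as well (adjusted p = 0.00211 to 0.00474, edgeR). For each of these 4 the row of a snoRNA inside the gene had a count over 50% of that of the gene. Shared reads were not measured, so host and snoRNA were not told apart here either. The count was 0 without sham-empty replicate 1 and 4 without replicate 2. With miR-29 after OGD, against OGD-empty, 22 of 31 rose and 1 fell (median 1.04), where 17.2% of all genes rose and 19.9% fell. Outside the windows of Dancr and Snhg1, 63 of 265 rows of snoRNAs and small Cajal body RNAs fell in OGD-empty against sham-empty and 0 rose, with a median of -0.65. Leaving out a sham-empty library brought the number to 1 (replicate 1) or 16 (replicate 2), and it was 32 when OGD-empty replicate 3 was left out. With the day as a block and the length trend removed it was 41, 32 lower and 9 higher. Of these rows 122 rose and 26 fell in OGD-miR-29 against OGD-empty, and 75 rose and 40 fell with the block and the length trend removed. Rows with overlapping windows can hold the same reads, so the counts and medians are not over independent units. Snord15a (-1.73 in OGD-empty against sham-empty) and Rps3 are such a pair, at 81.5 and 81.8 CPM in OGD-empty.

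Other short noncoding RNAs were set beside Rny1 and Rny3. Of the 9 tested, 4 are made by RNA polymerase III as Y RNAs are (Rpph1, Rmrp, Rn7sk and Vaultrc5), and Rnu3a and Rnu73b are annotated as snoRNAs. In OGD-empty against sham-empty 6 of 9 fell and 0 rose (3.61% and 1.48% of all genes), with a median log2 fold change of -1.68. They were Rnu12 (-1.92 ± 0.30 SE), Rn7sk (-1.68 ± 0.28), Rnu11 (-1.82 ± 0.38), Vaultrc5 (-1.83 ± 0.45), Rpph1 and Rmrp, the last 2 named after their values were seen. Rnu12 and Rnu11 are RNAs of the minor spliceosome, made by RNA polymerase II, Rn7sk holds back transcription elongation, and Vaultrc5 is a vault RNA. Rpph1, the RNA of ribonuclease P, had 2899 and 2266 CPM in sham-empty, 918, 1322 and 1129 CPM in OGD-empty, with 2377, 2711 and 4917 CPM under OGD-miR-29. Its OGD-empty libraries lay below all others. The adjusted p was 0.00225 for Rnu12 and 0.00294 for Rn7sk by edgeR. The overlapping rows Ick and Cyb5r3 had counts over 50% of those of Rn7sk and Rnu12, and how many reads are shared was not measured. The number called was 2 without sham-empty replicate 1 (Rnu12 and Rn7sk), 1 without replicate 2 and 3 without OGD-empty replicate 3; Rnu12 was called in all 13 alternatives.

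All 9 of these tested RNAs rose in OGD-miR-29 against OGD-empty, where 17.2% of all genes were called higher. The median log2 fold change was 1.57, against 0.02 over all genes. Rnu12 rose by 1.76 ± 0.26, Rnu11 by 1.89 ± 0.31, Rn7sk by 1.503 ± 0.26 and Rpph1 by 1.57 ± 0.29 (adjusted p at most 0.000768, edgeR). With each library left out in turn 7 or 8 were called. In OGD-miR-29 against sham-miR-29, edgeR, DESeq2 and limma-voom called 0 of 9, 0 had an unadjusted p under 0.05 (9.17% of all genes did), and the median was 0.40.

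Genes of the proteins that bind and make these RNAs were counted next. Of 12 genes of Y RNA binding proteins, 1 fell in OGD-empty against sham-empty, where 3.61% of all genes fell. It was Ybx1 (-0.85 ± 0.24 SE, adjusted p = 0.0432, edgeR), a cold shock domain protein. The call was lost in 8 of 13 alternatives, among them the omission of sham-empty replicate 1 or 2 or of OGD-empty replicate 2 or 3 (adjusted p = 0.221, 0.2, 0.109 and 0.0844, edgeR). Trove2, which encodes Ro60, and Ssb, which encodes La, were chosen after their values were seen: Trove2 stood at 0.21 ± 0.30 and Ssb at -0.35 ± 0.38, and neither was called. Between OGD-miR-29 and OGD-empty 2 of the 12 rose and 4 fell, against 17.2% and 19.9% of all genes. Those that fell were Elavl4 (-1.08 ± 0.29), Ncl (-1.24 ± 0.33), Elavl1 (-0.78 ± 0.24) and Fip1l1 (-0.91 ± 0.28), with adjusted p from 0.00659 to 0.0169 by edgeR. Ncl, nucleolin, is itself a snoRNA host, and the overlapping Snord82 row had a count over 50% of that of Ncl. Elavl1 was not called without OGD-empty replicate 1 or without OGD-miR-29 replicate 3 (adjusted p = 0.0555 and 0.0659, edgeR), nor was Fip1l1 without OGD-miR-29 replicate 1 (adjusted p = 0.112, edgeR). With the day as a block and the length trend removed, Elavl4 (-0.34, adjusted p = 0.348, edgeR) and Fip1l1 (-0.57, adjusted p = 0.0943, edgeR) were not called.

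Genes of the snoRNA-protein particles gave 0 calls of 15 in OGD-empty against sham-empty by edgeR, DESeq2 or limma-voom (median log2 fold change -0.11), and 0 of them had an unadjusted p under 0.05, against 23.7% of all genes. Between OGD-miR-29 and OGD-empty 6 of 15 rose (17.2% of all genes did), among them Rrp9 (1.49 ± 0.40, adjusted p = 0.00717, edgeR), a box C/D protein. Rrp9 was called in all 13 alternatives that gave it a value, but DESeq2 called 2 of the 15, and the count was 2 without OGD-empty replicate 1, 3 without OGD-empty replicate 3, 3 and 2 when replicate 2 or 3 of OGD-miR-29 was left out. Of 26 genes of RNA polymerase III and its factors 0 were called in the first comparison by the 3 tools, 3 with an unadjusted p under 0.05. In the second 4 rose and 3 fell, shares below those of all genes (17.2% and 19.9%). Bdp1 (-1.40 ± 0.29), a part of the initiation factor TFIIIB, fell, and Maf1 (1.35 ± 0.35), a repressor of RNA polymerase III, rose (adjusted p = 0.00147 and 0.00618, edgeR). Of 15 genes of nonsense-mediated decay, 0 were called in the first comparison by the 3 tools, 4 with an unadjusted p under 0.05. In the second, where 37.1% of all genes were called, 1 was, Upf2 (-1.39 ± 0.36, adjusted p = 0.00574, edgeR), a core decay factor. Upf2 was not called with the block and the length trend removed (-0.81, adjusted p = 0.0925, edgeR). With the day as a block alone, Smg8 was called lower in the first (-1.25, adjusted p = 0.035, edgeR). Without OGD-empty replicate 1, Upf2 (1.89, adjusted p = 0.0462, edgeR) and Smg6 (1.49, adjusted p = 0.0232, edgeR) were called higher in the first.

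Other long noncoding RNAs, a list of 11 tested genes that also holds Meg3, are given beside these. In OGD-empty against sham-empty 1 of 11 rose, Miat (1.35 ± 0.33 SE, adjusted p = 0.0241, edgeR), and 0 fell, with a median log2 fold change of 0.72. Over all genes 1.48% rose and 3.61% fell. Miat was not called without sham-empty replicate 1 or replicate 2 (adjusted p = 0.136 and 0.215, edgeR), and with the day as a block 2 genes were called. Against OGD-empty, 8 of 11 fell in OGD-miR-29 and 0 rose (19.9% and 17.2% of all genes), with a median of -1.14. Malat1, an abundant nuclear RNA, was at 1222 CPM in OGD-empty and 553 CPM in OGD-miR-29 (-1.14 ± 0.31, adjusted p = 0.00752, edgeR). The number that fell was 4 without OGD-miR-29 replicate 2 and 5 without replicate 3.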

How the data were processed

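RNA was measured in 12 libraries of mouse cortical cultures, made with TruSeq after ribosomal RNA depletion, per the labels' protocols. The authors deposited raw read counts, 1 row a gene symbol, and 2 comparison tables. Per the file headers these give log2 fold changes and mean log2 CPM, a score (the likelihood ratio), and p-values with false discovery rates. The submitters' processing notes name STAR 2.5.0a, featureCounts 1.4.3-p1, edgeR and mm10, with no role; the annotation, strand setting and counting window are not given in the sources used here, so the window was read from the values. The deposited column labelled sham-empty replicate 3 is a score and no count: it summed to 22859, and 92.4% of its values at matched rows equalled the number of same-strand genes from the gene to 10 kb downstream. It was left out, so sham-empty had n = 2, and 0 sample columns were unmapped.

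The 11 remaining libraries were fitted in 1 model with 4 group means (edgeR 4.0.16 in R 4.3.3, TMM, filterByExpr, robust quasi-likelihood), with Benjamini-Hochberg adjustment over 12119 genes and a call under 0.05. Of 12145 rows, 11952 were matched to GENCODE M21 (GRCm38), 11356 by the same symbol. Levels are CPM on TMM-scaled library sizes. Intervals are 95%, from the t distribution on the fit's degrees of freedom, and cover the spread between libraries. The fits were tested on simulated data. Alternatives were DESeq2 1.42.0 (size factors, Wald test), limma 3.58.1 (voom), no filter, no mitochondrial rows, only the compared groups, each library left out, and the dissection day as a block without and with removal of the length trend. The numbers pair the samples because the design text gives each replicate set its own day; deviations of 15 same-number pairs correlated at -0.09 to 0.232 (median 0.007), and of 30 other pairs at -0.245 to 0.201.

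The members, the gene lists and the rules were chosen with earlier results of these data known. Named were the 4 rows, rows within 10 kb of them, up to 4 called genes a list and comparison (otherwise up to 3 with the smallest p), and for each of the 3 loci the 3 genes beyond 100 kb most like it; genes named outside this rule are marked. Beside some genes an overlapping row is named, where its own count came to over 50% of the gene's count. This measure does not give the reads that both share. Such rows not named in the results were, among others, Parp3 for Rrp9, Timm44 for Elavl1, Lnx1 for Fip1l1, Gm26953 for Miat and Gdpd1 for Smg8.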

Additional observations from a re-analysis of the deposited data

Results flagged for a closer look

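In 4 of the 10 other noncoding snoRNA hosts tested, against 1015 of 12119 genes (8.38%), the effect of OGD differed between the virus backgrounds by a test of the difference itself. These are edgeR interaction terms, OGD-miR-29 against sham-miR-29 minus OGD-empty against sham-empty, with 2 or 3 libraries a group. They were run in the main fit only, so no library was left out and no alternative was tried. The difference was 2.16 ± 0.41 (SE, log2) for Snhg3 (adjusted p = 0.00866, edgeR) and 1.69 ± 0.42 for Snhg4 (adjusted p = 0.0227, edgeR). It was 2.14 ± 0.55 for Snhg6 (adjusted p = 0.0224, edgeR) and 1.48 ± 0.43 for Snhg7 (adjusted p = 0.0386, edgeR). In OGD-empty against sham-empty itself Snhg6 and Snhg7 were not called (adjusted p = 0.0679 and 0.169, edgeR). The other 6 hosts tested, among them Meg3 at -1.46 ± 0.44 (adjusted p = 0.051, edgeR) and Gas5 at 0.50 ± 0.40, did not pass. The miR-29 effect without OGD enters the same difference, and in sham cultures Snhg6 stood at -1.05 ± 0.42 under miR-29 (adjusted p = 0.9995, edgeR). Dancr, Snhg1, Rny1 and Rny3 were chosen on this pattern and got no such test.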

How the results depend on the processing

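For Dancr, Snhg1, Rny1 and Rny3 the number called stayed at 0 in the 3 tested comparisons under every alternative run, leave-one-out included (0 to 0). With the dissection day as a replicate block the log2 values of OGD-empty against sham-empty were -2.05 (Dancr), -1.94 (Snhg1), -2.03 (Rny1) and -2.21 (Rny3); with the length trend removed as well they were -1.64, -1.52, -1.62 and -1.80, and OGD-miR-29 against OGD-empty gave 1.58 for Dancr and 1.28 for Snhg1. Of their alternatives, 252 kept the value within the spread between libraries or the call, 5 moved and 9 turned sign, all 9 in comparisons with no call: Rny3 in OGD-miR-29 against sham-miR-29 without OGD-miR-29 replicate 3 (-0.059, leave-one-out range -0.059 to 0.632), Dancr in sham-miR-29 against sham-empty without sham-empty replicate 2 (0.309, range -0.789 to 0.309), and in OGD-miR-29 against sham-empty Dancr without sham-empty replicate 1 (-0.184), without OGD-miR-29 replicate 3 (-0.093) and with block and length trend removal (-0.061; range -0.184 to 0.916), Snhg1 without sham-empty replicate 1 (0.068) or OGD-miR-29 replicate 2 (0.041; range -0.429 to 0.068), and Rny1 and Rny3 without sham-empty replicate 1 (0.116, range -0.653 to 0.116, and 0.194, range -0.737 to 0.194). Ybx3 in sham-miR-29 against sham-empty (range -1.221 to 0.056) and Snhg4 (-0.66 to 0.095) and Rpph1 (-0.021 to 0.595) in OGD-miR-29 against sham-empty also turned sign with a library left out, none of them called.

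In OGD-empty against sham-empty, calls among the other noncoding hosts were 2, 5 with the block, and 0 to 4 with a library left out. For short noncoding RNAs they were 6, and 1 to 6 with a library left out. For coding hosts they were 13, 8 with block and length trend removal, and 0 to 13 with a library left out. Over all genes the call number was 617, 1369 with the block, 201 with only the compared groups, 12 and 76 when replicate 1 or 2 of sham-empty was left out, and 984 and 367 when replicate 1 or 3 of OGD-empty was; the share of higher calls went from 179 of 617 to 292 of 666 with DESeq2 and 75 of 477 with limma-voom. In OGD-miR-29 against OGD-empty, hosts gave 7 of 10, 3 of 8 with block and length trend removal, and 5 to 7 with a library left out; coding hosts 23, 15 and 18 to 25; short noncoding RNAs 9 and 7 to 8; all genes 4501, and 2869 with block and length trend removal. In OGD-miR-29 against sham-miR-29 all genes gave 2, 5 with the block or with only the compared groups and 25 with block and length trend removal, and in OGD-miR-29 against sham-empty 0, and 16 with only the compared groups. The block changed no other call of a gene named in the text than those given beside the results. No scaling moved the median of all genes by 0.1 log2. With 3 to 58 reads a library, Dancr has the least depth of the 4 rows. The cause of these shifts was not tested.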
